A study of Homo sapiens with 6 samples.

Results

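Genes for 9 hormones and growth factors that liver cells release into the blood were followed in Huh7 cells with and without extra VPS72. They are GDF15, FGF21, FGF19, STC2, INHBE, ANGPTL4, ANGPTL8, LECT2 and FST, found by symbol, and all 9 were among the 37822 gene symbols of the count table. Huh7 is an established human hepatocellular carcinoma line. Both groups were infected with lentivirus for 24 h and differed in its cargo: the 3 FLAG libraries came from WT Huh7 cells given the FLAG control, and the 3 VPS72 libraries from cells given a VPS72 overexpression virus. The labels do not name the promoter that drives VPS72, do not say whether the cells were selected or cloned, and do not say that replicates were separate cultures, so p-values here measure the spread between these libraries, which may be technical. VPS72 binds the histone variant H2A.Z as part of chromatin remodelling complexes. Its mRNA stood at 1149.5 to 1172.5 CPM (counts scaled to a common library total) in the VPS72 libraries against 21.3 to 26.7 CPM in the FLAG libraries, in the direction of the labels.

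These hormones carry news of cell stress and of the fed or fasted state from the liver to other tissues. GDF15, FGF21, STC2 and INHBE are targets of the integrated stress response, in which phosphorylation of eIF2-alpha slows translation while raising ATF4, a transcription factor that binds composite C/EBP-ATF elements. GDF15 curbs appetite through the receptor GFRAL with RET. FGF21 and FGF19 both act through FGF receptors with the co-receptor KLB. FGF21 is made by the fasted or stressed liver. FGF19 is mainly an intestinal hormone that represses bile acid synthesis, is driven by the bile acid receptor FXR, and is made by some liver cancers. ANGPTL4 and ANGPTL8 restrain lipoprotein lipase in the fasted and the fed state. INHBE encodes the beta subunit of activin E, FST encodes follistatin, which binds activins, and LECT2 is a cytokine-like protein of hepatocytes.

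The promoter windows of GDF15, FGF21 and ANGPTL8 are shown because GDF15 had the lowest log2 fold change of the 6 hormones that could be tested, while FGF21 and ANGPTL8 were near 0 and hold the core of a C/EBP-ATF composite element. Each window runs from 250 bases before to 50 bases after the gene's start, 5′ to 3′ on the gene's strand, from RefSeq (GRCh38.p14). Capitals mark the matches.
GDF15 (chr19:18385908-18386207, plus strand): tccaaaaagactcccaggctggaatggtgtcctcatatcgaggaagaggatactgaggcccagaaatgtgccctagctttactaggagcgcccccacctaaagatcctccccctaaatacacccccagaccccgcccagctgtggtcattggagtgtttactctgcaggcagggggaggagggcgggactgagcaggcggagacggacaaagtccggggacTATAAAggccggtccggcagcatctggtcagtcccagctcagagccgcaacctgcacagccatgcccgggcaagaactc
FGF21 (chr19:48755274-48755573, plus strand): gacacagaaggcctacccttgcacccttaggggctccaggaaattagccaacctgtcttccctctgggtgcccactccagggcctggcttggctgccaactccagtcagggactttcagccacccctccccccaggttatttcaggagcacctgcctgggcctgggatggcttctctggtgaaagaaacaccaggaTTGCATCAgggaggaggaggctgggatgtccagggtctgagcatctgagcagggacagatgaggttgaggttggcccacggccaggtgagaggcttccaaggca
ANGPTL8 (chr19:11239369-11239668, plus strand): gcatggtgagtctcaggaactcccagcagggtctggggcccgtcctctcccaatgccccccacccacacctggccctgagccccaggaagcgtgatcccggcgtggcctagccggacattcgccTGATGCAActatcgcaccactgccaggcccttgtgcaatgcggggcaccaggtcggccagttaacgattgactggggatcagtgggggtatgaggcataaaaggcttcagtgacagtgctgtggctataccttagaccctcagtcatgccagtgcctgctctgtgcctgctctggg

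Of the 9 genes, 7 had such a window. FGF19 and INHBE had no entry. The windows were searched on both strands for 5 motifs, and each of the 7 held at most 1 match. The composite core, TGATGNAA, was found in FGF21 on the opposite strand (positions -54 to -47 from the start), in ANGPTL8 on the gene's strand (-126 to -119) and in LECT2 on the opposite strand (-206 to -199). It is present in 3.617% of all 35116 windows of the table. The TATA box, TATAAA, was found at -29 to -24 in both GDF15 and ANGPTL4 and occurs in 11.53% of windows. TGANTCA, a loose form of the AP-1 motif that allows any middle base, was found in FST as TGATTCA at -160 to -154. It occurs in 7.709% of windows. The E-box CACGTG (7.256% of windows) was in none of the 7. The cAMP response element, TGACGTCA (1.848%), was in none either. STC2 held none of the 5 motifs. A match describes these letters only and is not evidence of binding.

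No hormone gene passed the test. Of the 9 genes, 6 had enough counts to be tested, and 0 of these were higher and 0 lower with VPS72 at a Benjamini-Hochberg adjusted p of 0.05 in edgeR's quasi-likelihood test, against 1.45% of all 14253 tested genes. At an unadjusted p of 0.05 edgeR's count was again 0 of 6 (12.3% of all tested genes), and DESeq2 also gave 0 (10.1%). Without robust estimation of the spread, edgeR gave 1 of 6 at that level, GDF15 (11.5% of all tested genes). At an adjusted p of 0.05 limma-voom called 0 of 6, against 201 of all 14253 tested genes. DESeq2 called 0 there too, against 249 of all tested genes, but gave 3 of the 6 no adjusted p. All 6 hormone genes had overlapping groups, so 0 were apart in either direction. Over all tested genes, 17.2% had groups that did not overlap (8.44% lower and 8.78% higher with VPS72). With 6 genes, a count of 0 cannot be told from that share. The log2 fold change was negative in 5 of the 6 (51.2% of all tested genes), with a median of -0.21 against -0.00 over all tested genes. The genes had been chosen with results of these data known, so the median is a description. Without FLAG replicate 1 it was -0.12. In bulk RNA, fewer cells making a transcript and less of it per cell cannot be told apart.

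**Figure D1:**
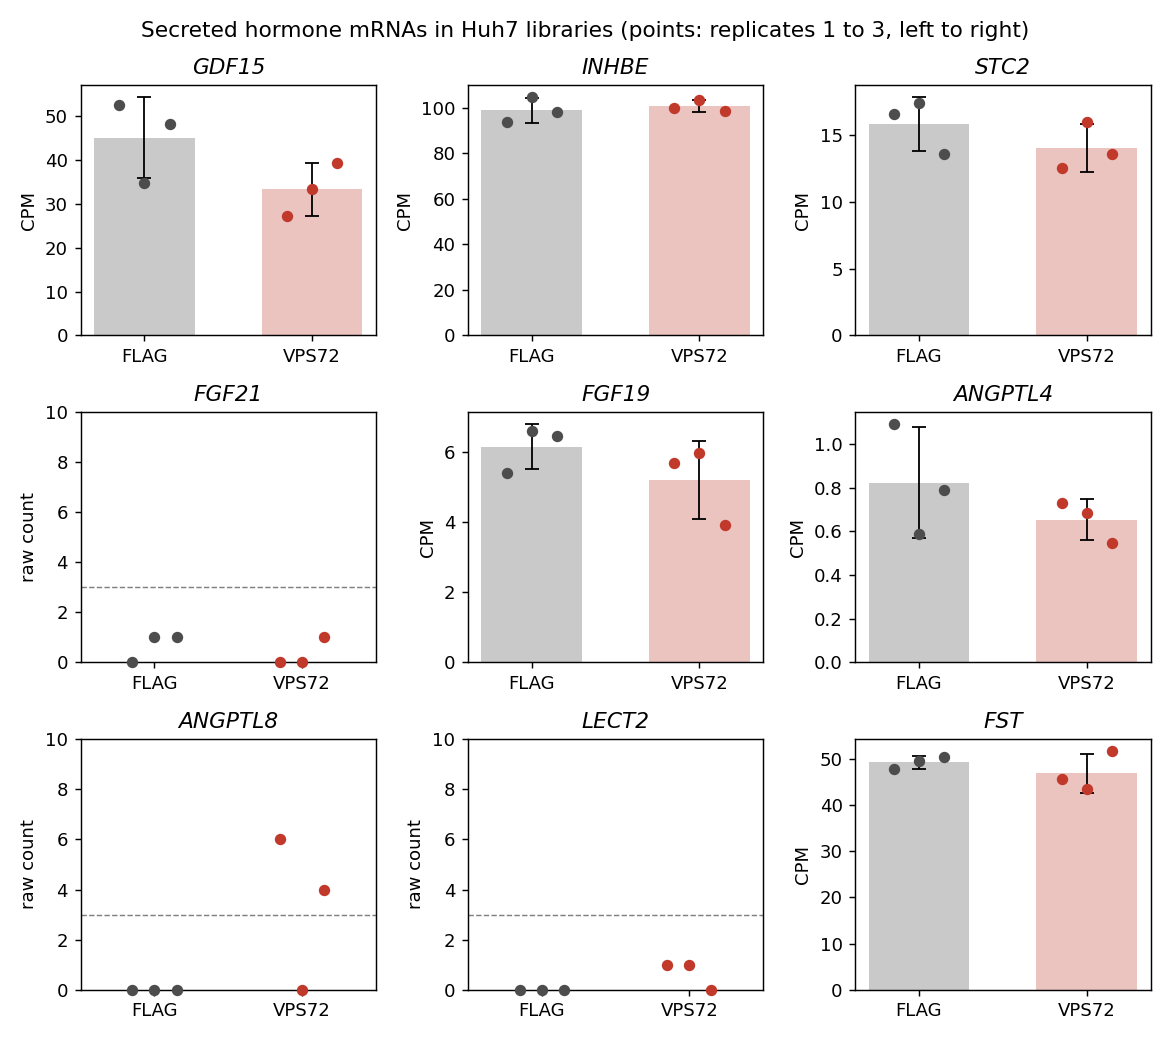
mRNA of each hormone gene in every library, as CPM with mean and SD of 3 libraries (6 genes) or as raw counts with a dashed line at 3 counts (FGF21, ANGPTL8, LECT2). The points of the groups overlap in all 6 genes drawn in CPM, and GDF15 spreads from 27.2 to 52.5 CPM.

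GDF15, the stress hormone of the appetite circuit, had the lowest log2 fold change and did not pass. It stood at 52.5, 34.7 and 48.3 CPM in FLAG replicates 1, 2 and 3, and at 27.2, 33.5 and 39.4 CPM in VPS72 replicates 1, 2 and 3. FLAG replicate 2 lay below VPS72 replicate 3, so the groups overlapped, while the other 2 FLAG libraries lay above all VPS72 libraries. The means were 45.2 ± 9.29 and 33.4 ± 6.09 CPM (SD, n = 3 per group), a log2 fold change of -0.44 ± 0.23 (SE; Benjamini-Hochberg adjusted p = 0.57 in edgeR), with a 95% interval from -52.0% to 13.1%. The SD of log2 CPM within groups was 0.29 for GDF15, above that of 99% of 4465 tested genes with a mean CPM within 2-fold of its own, whose median SD was 0.08. The fit therefore gave GDF15 4.29 degrees of freedom, against 28.5 for each of the other 5 tested hormones. Without this robust estimation of the spread its unadjusted p was 0.00502 instead of 0.122, and edgeR's adjusted p was 0.174. Leaving out FLAG replicate 2 gave -0.60 with an adjusted p of 0.0792 by the same test.

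INHBE had the highest mean CPM of the 9, a measure not corrected for transcript length, and lay at nearly the same level in both groups. It stood at 93.8, 104.7 and 97.9 CPM in the FLAG replicates and at 99.96, 103.4 and 98.3 CPM in the VPS72 replicates. Its 3 VPS72 libraries all lay inside the range of the FLAG libraries. The log2 fold change was 0.03 ± 0.05 (SE; Benjamini-Hochberg adjusted p = 0.914 in edgeR) with a 95% interval from -4.88% to 8.90%, the narrowest of the 6, and it turned to -0.0062 with library size scaling alone and to -0.011 without FLAG replicate 1. Counts of GDF15 per count of INHBE, a ratio that no scaling changes, were 0.560, 0.332 and 0.493 in the FLAG libraries and 0.272, 0.324 and 0.400 in the VPS72 libraries. This ratio overlapped between the groups too, again through FLAG replicate 2.

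STC2, stanniocalcin-2, a secreted glycoprotein that inhibits the protease PAPPA, did not pass. It stood at 16.6, 17.4 and 13.6 CPM in the FLAG replicates and at 12.5, 16.0 and 13.5 CPM in the VPS72 replicates. VPS72 replicate 2 lay above FLAG replicate 3. The log2 fold change was -0.18 ± 0.12 (SE; Benjamini-Hochberg adjusted p = 0.594 in edgeR), with a 95% interval from -25.5% to 4.44%. Leaving out VPS72 replicate 1 gave -0.10, FLAG replicate 2 -0.11, FLAG replicate 3 -0.28 and VPS72 replicate 2 -0.28. FGF21 was near 0 in all libraries, with 0, 1 and 1 counts in the FLAG replicates and 0, 0 and 1 in the VPS72 replicates. A library at 0 allows up to 3 counts, which is 0.104 to 0.139 CPM at these depths, counting error only. A change in FGF21 was not detectable at this depth.

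FGF19, the bile acid hormone, was expressed at a low level and did not pass. It stood at 5.41, 6.59 and 6.46 CPM in the FLAG replicates and at 5.70, 5.98 and 3.92 CPM in the VPS72 replicates. VPS72 replicate 3 was the lowest, and the other 2 VPS72 libraries lay inside the FLAG range. The log2 fold change was -0.24 ± 0.18 (SE; Benjamini-Hochberg adjusted p = 0.674 in edgeR), with a 95% interval from -34.4% to 9.82%, and it was -0.07 without VPS72 replicate 3.

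Among 14 receptors and co-receptors of the hormones, 10 were tested, 1 rose, 1 fell and 8 did not pass (over all tested genes 0.968% rose and 0.477% fell), with a median log2 fold change of 0.00 that was -0.03 with library size scaling alone and below 0 with the abundance trend removed and in limma-voom. KLB, the co-receptor that FGF19 and FGF21 share, rose by 13.6%, from 154 ± 2.85 to 175 ± 4.54 CPM (SD, n = 3 per group). It stood at 157.7, 153.3 and 152.3 CPM in the FLAG replicates and at 177.1, 170.3 and 178.9 CPM in the VPS72 replicates, with no overlap. FGFR1, a receptor that pairs with KLB, fell by 33.8%, from 12.8 ± 0.35 to 8.50 ± 0.84 CPM. It stood at 12.8, 12.5 and 13.2 CPM in the FLAG replicates and at 8.34, 7.76 and 9.41 CPM in the VPS72 replicates, also with no overlap. Counts of KLB per count of FGFR1, a ratio chosen after its values were seen, were 11.5 to 12.3 in the FLAG libraries and 19.0 to 21.9 in the VPS72 libraries. FGFR4, the main FGF receptor of hepatocytes, stood at 73.9 ± 6.92 and 75.2 ± 9.03 CPM and did not pass (log2 fold change 0.02 ± 0.11).

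The KLB call had an adjusted p of 0.0125 and the FGFR1 call of 0.0113 in edgeR's quasi-likelihood test. Both were lost in 3 of the 6 fits that leave out 1 library. By the same test, the KLB adjusted p was 0.0509 when FLAG replicate 2 was left out. It was 0.0599 and 0.0597 when VPS72 replicates 1 and 3 were left out in turn, 0.0534 with library size scaling alone and 0.0526 without robust estimation. For FGFR1 it was 0.0663 when FLAG replicate 1 was left out, and 0.0582 and 0.087 when VPS72 replicates 1 and 2 were left out in turn. GFRAL, the receptor of GDF15, had 0 or 1 counts per library and RET 0 to 5, and neither was tested.

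NR1H4 encodes FXR, the bile acid receptor that drives FGF19. It rose by 16.9%, from 62.4 ± 1.89 to 73.0 ± 1.52 CPM, with edgeR's Benjamini-Hochberg adjusted p = 0.0192. That call was lost in all 6 fits that leave out 1 library, with adjusted p from 0.0515 without VPS72 replicate 3 to 0.127 without VPS72 replicate 2. It was also lost with library size scaling alone (0.058) and without robust estimation (0.0512). Of 8 FXR targets other than FGF19, 7 were tested, 2 rose, 0 fell and 5 did not pass, with a median log2 fold change of 0.15. Over all tested genes 0.968% rose. The median was 0.27 when FLAG replicate 2 was left out, 0.19 without VPS72 replicate 2 and 0.11 without VPS72 replicate 3. FGB and FGG, 2 fibrinogen chains that are also general hepatocyte products, rose by 17.6% and 14.2%, and both calls held in every alternative run. NR0B2, which encodes the FXR-induced repressor SHP, had a log2 fold change of -0.02 ± 0.51 at 8 to 39 counts per library.

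ANGPTL4, a lipase inhibitor of the fasted state, was close to the limit of the test. It stood at 1.09, 0.59 and 0.79 CPM in the FLAG replicates and at 0.73, 0.68 and 0.55 CPM in the VPS72 replicates, from 13 to 28 counts per library. FLAG replicate 1 was the highest, and the groups overlapped. The log2 fold change was -0.33 ± 0.47 (SE; Benjamini-Hochberg adjusted p = 0.873 in edgeR), with a 95% interval from -58.9% to 54.5%. It was -0.06 when FLAG replicate 1 was left out and -0.52 when FLAG replicate 2 was left out. ANGPTL8, a hormone of the fed state, had 0 counts in all 3 FLAG libraries and 6, 0 and 4 counts in VPS72 replicates 1, 2 and 3. It did not pass the filter on low counts, a VPS72 library was at 0 as well, and no fold change is given. In GENCODE release 29, 28.6% of the exon bases of ANGPTL8 also lie in exons of DOCK6 on the opposite strand. DOCK6 stood at 31.8 ± 2.28 and 31.4 ± 4.52 CPM, and without strand, reads over these shared bases cannot be assigned to either gene.

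Lipases on which the angiopoietin-like proteins act gave no call. LIPG, endothelial lipase, stood at 131 ± 1.20 and 146 ± 6.62 CPM (edgeR, adjusted p = 0.0561). LPL, lipoprotein lipase, had 0 counts in every library.

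FST, which binds and neutralises activins, did not pass. It stood at 47.8, 49.5 and 50.5 CPM in the FLAG replicates and at 45.6, 43.6 and 51.7 CPM in the VPS72 replicates. VPS72 replicates 1 and 2 lay below the FLAG libraries and VPS72 replicate 3 above them. The log2 fold change was -0.07 ± 0.07 (SE; Benjamini-Hochberg adjusted p = 0.768 in edgeR), with a 95% interval from -13.4% to 4.76%. Leaving out VPS72 replicate 2 gave -0.02, VPS72 replicate 1 -0.04 and VPS72 replicate 3 -0.14. Of the other activin subunits, INHBB stood at 38.9 ± 1.39 and 41.9 ± 1.75 CPM and INHBA at 5.61 ± 0.25 and 4.47 ± 0.46 CPM, and neither passed. The activin receptors ACVR1B, ACVR1C, ACVR2A and ACVR2B were expressed and did not pass, ACVR2B having the lowest adjusted p (0.207 by edgeR, log2 fold change -0.27 ± 0.10). LECT2 had 0 counts in all 3 FLAG libraries and 1, 1 and 0 counts in the VPS72 replicates, too few for a test, and 22.9% of its exon bases lie opposite exons of FBXL21.

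**Figure D2:**
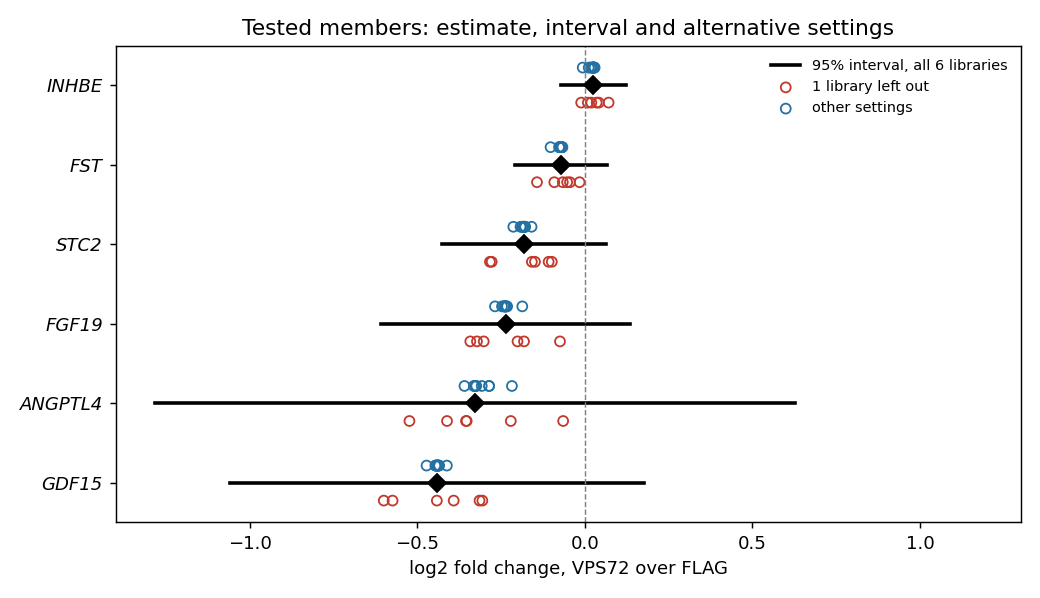
Log2 fold change of the 6 tested hormone genes, VPS72 over FLAG: diamonds and bars give the estimate and 95% interval with 6 libraries, red circles the fits that leave out 1 library, blue circles the other settings. Every bar crosses 0, from the narrow bar of INHBE to that of ANGPTL4, and the circles of INHBE lie on both sides of 0.

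Levels can be compared between genes only per transcript length. In TPM (counts per base of transcript, scaled to a common total), computed with the longest coding transcript of each gene in GENCODE release 29, the order in the FLAG libraries was INHBE at 104 ± 6.99, GDF15 at 96.1 ± 19.0, FST at 49.6 ± 1.15, STC2 at 7.58 ± 1.10, FGF19 at 6.43 ± 0.67 and ANGPTL4 at 1.12 ± 0.34 TPM (SD, n = 3). INHBE and GDF15 overlapped in that order, as did STC2 and FGF19, and the other neighbours did not. In the VPS72 libraries the order was the same, but INHBE, at 101 to 106 TPM, lay apart from GDF15, at 55.8 to 82.0 TPM. INHBE in FLAG lay above 90.8% of tested genes and ANGPTL4 above 8.40%.

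**Figure D3:**
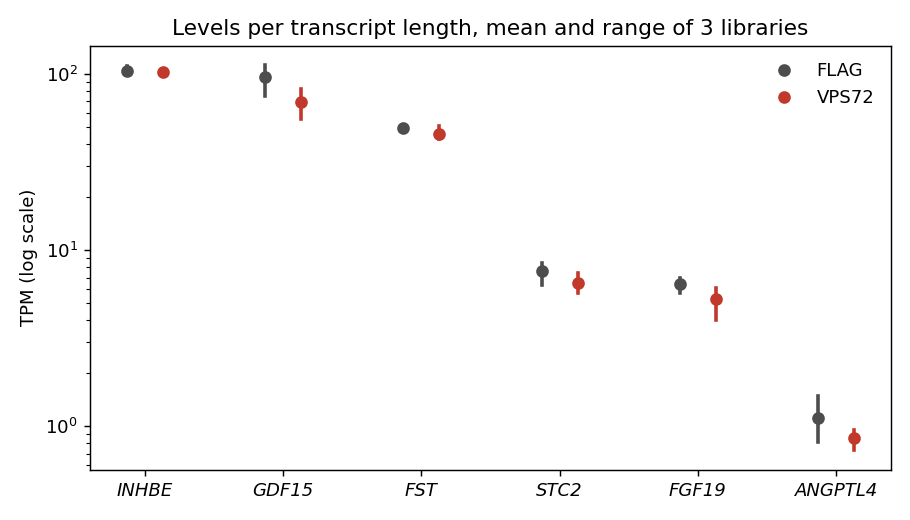
TPM on a log scale for the 6 tested hormone genes; points are means and lines the range of 3 libraries. INHBE, GDF15 and FST lie between 42.8 and 112 TPM, and STC2, FGF19 and ANGPTL4 lie at or below 8.45 TPM.

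GDF15, ANGPTL8 and ANGPTL4 had GC-rich transcripts (62.9%, 63.0% and 63.3% GC, against a median of 47.8% over tested genes), while LECT2 (38.7%) and FST (45.1%) lay below that median. With the trend of each library with GC content removed, an alternative added after the data were seen, the log2 fold change was -0.41 for GDF15 and -0.29 for ANGPTL4. The genes whose profiles over the 6 libraries lay nearest to that of GDF15, by root mean square distance of centred log2 values among 10414 genes, were FAM83H (0.066), CLDN23 (0.079) and NFKBIB (0.093). For STC2 they were ZNF271P (0.049), ENOX2 (0.053) and NBPF12 (0.057). None of these 6 neighbours passed the test, an outcome that picking them by likeness to uncalled profiles favours. Between hormones the nearest pair was INHBE and FST (0.112) and the farthest GDF15 and FGF19 (0.404).

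Among stress response genes outside the hormones, ATF3, SLC7A11, PPP1R15A and CTH fell. Of 18 integrated stress response targets, all tested, 0 rose, 4 fell and 14 did not pass. Their median log2 fold change was -0.21 against -0.00 over all tested genes, and -0.15 without FLAG replicate 3. Falls over all tested genes came to 0.477%. ATF3, a stress-induced transcription factor, stood at 31.1, 30.6 and 36.0 CPM in the FLAG replicates and at 16.9, 18.0 and 19.2 CPM in the VPS72 replicates, with no overlap. It fell by 44.6% (log2 fold change -0.85 ± 0.09; Benjamini-Hochberg adjusted p = 1.57e-06 in edgeR). SLC7A11, the cystine transporter, fell by 28.3%, PPP1R15A, the phosphatase subunit GADD34 that reverses the response, by 18.1%, and CTH, cystathionine gamma-lyase, by 26.1%. The first 3 calls held in every alternative that gave an adjusted p. That of CTH was lost in all 6 fits that leave out 1 library (edgeR, adjusted p from 0.0651 without VPS72 replicate 1 to 0.12 without VPS72 replicate 3), with the abundance trend removed (0.0531) and without robust estimation (0.0616). The falls of ATF3 and SLC7A11 were known when the list was written, so its count is no independent evidence of direction.

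Of 23 transcription factors known to act on the hormone genes, all tested, 1 rose (NR1H4, whose call was lost in all 6 fits that leave out 1 library), 1 fell (ATF3) and 21 did not pass, with a median log2 fold change of -0.03. Over all tested genes 1.45% passed. ATF4, the main activator of the stress group, had a log2 fold change of -0.03 ± 0.05 and DDIT3, its partner CHOP, of -0.31 ± 0.12 (edgeR, adjusted p = 0.267). PPARA, which drives FGF21 and ANGPTL4 in the fasted liver, stood at 12.4 ± 1.98 and 12.0 ± 0.67 CPM. Of 12 PPARA targets other than these hormones, 10 were tested and 0 passed by edgeR, 3 of them at an unadjusted p of 0.05 (12.3% of all tested genes). CPT1A, the gate of fatty acid oxidation, had a log2 fold change of -0.21 ± 0.06 (edgeR, adjusted p = 0.0776) and PLIN2, a lipid droplet coat protein, of 0.08 ± 0.03 (0.318). CPT1A passed with library size scaling alone (0.0381) and with the GC trend removed (0.0348).

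Among other proteins that the liver secretes, RBP4 and AGT rose, and rises over all tested genes came to 0.968%. RBP4, the retinol carrier, rose by 16.1%, from 318 ± 1.51 to 370 ± 4.35 CPM, and AGT, angiotensinogen, by 17.4%, from 271 ± 9.60 to 318 ± 10.6 CPM. The calls of RBP4 and AGT held in every alternative run.

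**Figure D4:**
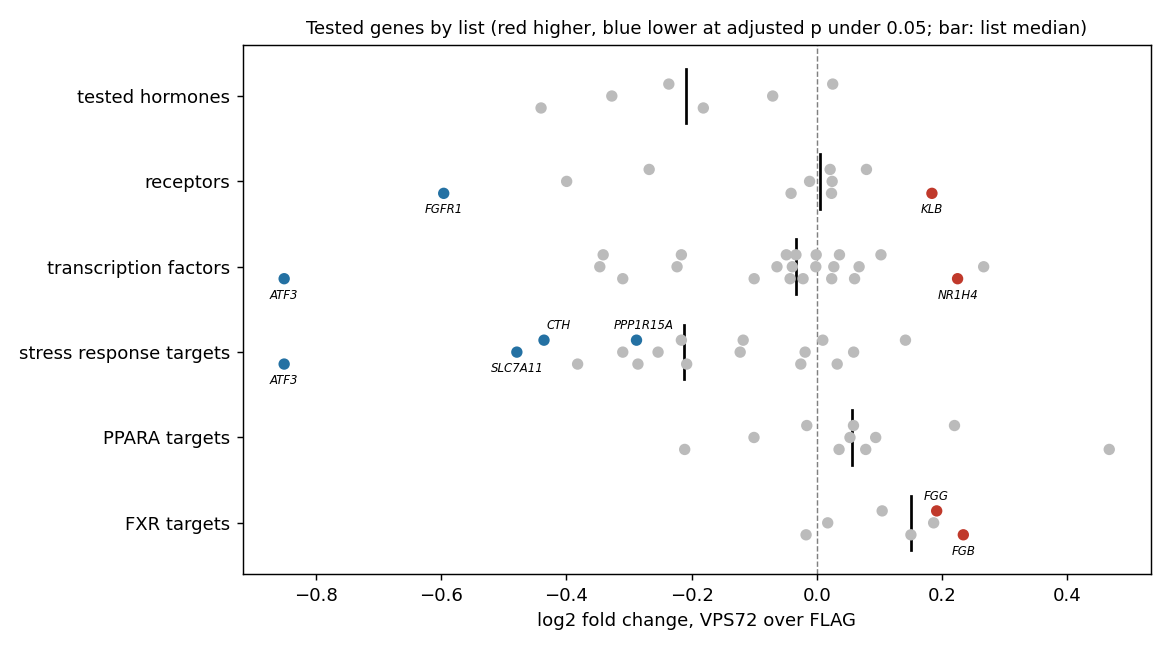
Log2 fold change of each tested gene in the hormone group and 5 related lists; red points rose, blue points fell, grey points did not pass, and bars are list medians. All 6 hormone points are grey, and 5 of the 6 lie below 0, as do 51.2% of all tested genes. The 4 blue points of the stress response list are its genes called lower, so they lie below 0 by definition.

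Libraries held 21345279 to 29091824 counts. Hepatocyte markers summed to 18028 to 18795 CPM in the FLAG group and to 20309 to 21151 CPM in the VPS72 group. Of these 8 markers 7 rose (0.968% of all tested genes), and FGB is itself among them. The part of the other markers in the rises of FGB, FGG, RBP4, AGT, KLB and NR1H4 was not tested. Of 8 HEK293T markers, the cells that made the virus, 4 were tested. By edgeR 0 of them passed (1.45% of all tested genes), and 0 did at an unadjusted p of 0.05 (12.3%). NEFL was at 0, and the sums were 18.6 to 20.9 and 19.0 to 22.6 CPM. Fibroblast and stellate markers summed to 168 to 181 and 202 to 210 CPM, nearly all of it LUM, which rose. Endothelial markers summed to 2.79 to 4.55 and 4.13 to 4.93 CPM, and immune markers to 10.8 to 12.5 and 13.6 to 14.5 CPM. Nearly all of the immune sum was LYZ, at 10.9 ± 1.14 and 13.2 ± 0.59 CPM, which did not pass (edgeR, adjusted p = 0.346). PTPRC, the general leukocyte marker of that list, had 0 or 1 counts per library. Across all genes, 138 rose and 68 fell, but 60 and 28 without robust estimation, 64 and 121 with library size scaling alone, and 70 and 77 with the abundance trend removed. Leaving out 1 library gave 51 and 19 (FLAG replicate 1), 66 and 25 (VPS72 replicate 1), 71 and 25 (VPS72 replicate 2), and 101 and 37 (VPS72 replicate 3).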

How the data were processed

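RNA sequencing libraries of 3 FLAG and 3 VPS72 Huh7 samples were grouped by their titles. Per the labels' protocols, RNAzol was used for total RNA and a KAPA HyperPrep RNA kit for the libraries. Values are estimated counts, deposited by the authors as unscaled whole numbers. STAR, RSEM, limma and both hg19 and hg38 appear in the submitters' processing notes, whose roles there are unstated. Strand use, annotation and tool versions were not given in the sources used here. Reads over exons that genes share can be split between them, which bears on ANGPTL8 and LECT2.

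Genes were filtered with filterByExpr (minimum count 10, minimum total 15), which left 14253 genes with 99.9% of the counts. VPS72 was compared with FLAG by edgeR 4.0.16 in R 4.3.3 (TMM scaling, robust quasi-likelihood fit, Benjamini-Hochberg adjustment over all tested genes, threshold 0.05). SEs are the log2 fold change divided by the square root of F, and intervals use the fit's degrees of freedom. CPM use TMM-scaled totals. The script was tested on simulated data. With 3 against 3 libraries, an exact permutation test of a single value cannot give a p below 0.1. Alternatives used DESeq2 1.42.0, limma 3.58.1, other scalings and filters, a replicate block, trend removal and leaving out each library. Distances between profiles used log2(CPM + 0.5) of genes with a mean of at least 5 CPM. TPM and GC content used GENCODE release 29, which matched 98.0% of tested genes by symbol. Libraries of a group differed by more than sampling noise.

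The 9 genes, the lists and the rule for named genes (the 9, VPS72, up to 4 called or 3 uncalled genes with the smallest p in each list, and 3 nearest profiles of 2 hormones) were chosen with earlier results of these data known. Other genes named were chosen after their values were seen. Some genes of the lists, and 2 lists whose counts depend on them, are not reported here.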

Additional observations from a re-analysis of the deposited data

How the results depend on the processing

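No hormone gene was called under any of the 19 alternatives. Of 110 values of single hormone genes, 108 kept their direction and side of the threshold, and INHBE turned to -0.0062 with library size scaling alone and to -0.011 without FLAG replicate 1 (-0.011 to 0.071 over the fits that leave out 1 library). DESeq2 gave 3 of the 6 genes no adjusted p. Over fits that leave out 1 library, GDF15 ran from -0.60 to -0.31, with edgeR's adjusted p from 0.0792 to 0.815, and the median of the 6 from -0.31 to -0.12. Adjusted p over all alternatives ran from 0.368 to 0.882 for STC2, 0.603 to 0.929 for FGF19, 0.762 to 0.994 for ANGPTL4 and 0.432 to 0.98 for FST.

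Over all genes, 138 rose and 68 fell. The counts were 64 and 121 with library size scaling alone, 70 and 77 with the abundance trend removed, 60 and 28 without robust estimation, 262 and 114 with the GC trend removed, and 47 and 19 at a threshold of 0.01. Leaving out 1 library gave 51 to 107 rises and 19 to 53 falls. The cause was not tested, except that a stricter threshold gives fewer calls by construction. With the replicate number as a block, 59 rose and 35 fell, and the calls of KLB (0.057), NR1H4 (0.0628) and CTH (0.0591) were lost. Same-numbered libraries did not deviate together (correlations of -0.08, 0.00 and 0.08 across genes), so the numbers were not taken as pairs. Depth left FGF21, ANGPTL8 and LECT2 untested, and a change in ANGPTL4, at 13 to 28 counts per library, was not detectable within its 95% interval.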
